A study of Mus musculus with 4 samples.

Results

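The stefin A cluster genes were followed through the cells of mouse bone. The group held 7 of the 31053 genes in the matrices, chosen by symbol: Stfa1, Stfa2, Stfa2l1, Stfa3, Gm5483 and BC100530 of the stefin A locus, and Cstb, which encodes stefin B (cystatin B). They were read in barcodes with 1000 to 40000 unique molecular identifiers (UMIs, 1 per captured mRNA molecule) and at most 10% of UMIs from mitochondrial genes. The members were chosen on their own levels in these matrices, by neutrophil stage and by library, so the stage pattern and the order of the libraries are given as descriptions.

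The study asked how bone responds to the loss of mechanical load. Whole tibia and femur, with the marrow flushed out and the bone digested by enzymes, were profiled by droplet single-cell RNA sequencing in wild-type mice of 2 groups, with 1 library per mouse and 2 mice per group. Ctrl mice were not suspended. HLU mice underwent hindlimb unloading, in which the tail is suspended so that the hind legs carry no weight, for 28 days. No group carried a transgene or a deletion, and the age of the mice was given differently in the methods and in the series text and is not given here.

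The stefins are small proteins that act inside the cell as tight, reversible inhibitors of cysteine proteases of the papain family, such as the cathepsins of the lysosome. Stefin A is encoded by a single gene in humans, whereas in the mouse it lies in an array of related copies on chromosome 16. Stefin B is encoded elsewhere and is made by most cell types. Neutrophils are made in the marrow from progenitors that divide, fill with granules in an order set by stage, stop dividing and then leave for the blood.

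In the mm10 build the 6 cluster genes lay between positions 36156811 and 36455392 of chromosome 16, a stretch of 298.6 kb, with 3 genes on each strand. Stfa2l1 (36156811 to 36161953), Gm5483 (36184212 to 36188111) and Stfa1 (36276951 to 36285373) were on the plus strand, and BC100530 (36359382 to 36367748), Stfa2 (36403992 to 36408457) and Stfa3 (36450537 to 36455392) on the minus strand. Cstb lay on chromosome 10 (78425669 to 78427622, plus strand). All 7 are annotated as protein coding.

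The sequence just before the start of each cluster gene, as placed by RefSeq, shows how alike the copies are. For Stfa1, Stfa2 and BC100530 the stretch shown lies inside the gene positions given above, which begin further upstream. RefSeq (GRCm38.p6) gives Gm5483 as Cstdc4 and BC100530 as Cstdc5, and it held a promoter for 6 of the 7 genes, Cstb not included. Read on the strand of the gene, ACCTTTAAAACC was the longest word found in all 6 windows of 250 bases before the start. It was the only such word of 12 bases and is printed below in capitals. It began 32 to 36 bases before the start in 5 of the genes and 12 bases before it in BC100530. On either strand of the promoter windows of all genes the word stood in 11 of 32851, or 0.0335%. These 11 include the 6 windows from which the word was picked, so the share is only a description. For the 3 genes whose upstream bases overlap no annotated exon 120 bases are shown, and for the others the 30 bases that end with the word.
Stfa2l1, chr16:36156691-36156810, plus strand: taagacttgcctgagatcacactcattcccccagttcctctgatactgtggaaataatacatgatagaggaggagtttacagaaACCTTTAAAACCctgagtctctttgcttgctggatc
Gm5483, chr16:36184092-36184211, plus strand: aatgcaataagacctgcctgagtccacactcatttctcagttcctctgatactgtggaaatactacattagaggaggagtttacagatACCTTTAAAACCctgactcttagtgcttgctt
Stfa3, chr16:36455393-36455512, minus strand: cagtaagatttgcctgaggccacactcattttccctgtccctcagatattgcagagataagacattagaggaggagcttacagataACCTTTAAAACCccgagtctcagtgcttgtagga
Stfa1, chr16:36277097-36277126, plus strand: gaggaggagctttcggatACCTTTAAAACC
Stfa2, chr16:36408384-36408413, minus strand: gaggaggagcttacagaaACCTTTAAAACC
BC100530, chr16:36367571-36367600, minus strand: gaggaggagtttacagatACCTTTAAAACC
Among the neighbouring genes, read on the strand of the gene, the word also stood before Gm5416, 80 bases from its start. It was not found before Csta1 or 2010005H15Rik. A match of letters is a description and does not show that a factor binds there.

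The copies are also alike at the 3′ end, where these libraries read. Of the 50-base words in the last 400 bases of the transcript, 50.4% in BC100530 were found in another gene as well, 32.5 to 39.6% in the transcripts of Stfa1, 37.0% in Gm5483, 24.2% in Stfa2l1 and 19.1% in Stfa2. Stfa3 and Cstb shared none. BC100530 shared most with Stfa1, Gm5483 with 2010005H15Rik, and Stfa2 with Stfa2l1. With 90-base words the share was 28.3% in BC100530, 16.1% in Gm5483, and 2.57% in both Stfa2 and Stfa2l1. A read that fits 2 genes equally is dropped by the counting software, so the counts of these 5 genes may be too low and are uncertain against each other, while Stfa3 and Cstb shared no word of either length.

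The rule left 7340 and 7635 barcodes in Ctrl replicates 1 and 2, and 7757 and 9485 in HLU replicates 1 and 2, 32217 in all. Putative doublets were removed, which left 30019 cells, and between 13 and 21 barcodes were shared by any pair of libraries. The median cell had 6294.5, 5787, 3799 and 6147 UMIs in the same order. Cells were clustered without the stefin genes and named from markers, so each class stands for cells like that type, and clusters that passed no marker rule stayed unnamed. Neutrophil classes ran from granulocyte progenitors (Mpo, Elane) through dividing immature and immature neutrophils (Ltf, Camp, Ngp) to mature neutrophils (Cxcr2, Csf3r, Retnlg) and activated mature neutrophils (Ccrl2, Cd274, Cxcl2). Mature neutrophils numbered 698, 948, 1743 and 1706 cells, and their median depth was 2178, 2811.5, 2655 and 4401.5 UMIs, so HLU replicate 2 was the deepest. In HLU replicate 2 the transcripts of S100a8 and S100a9, the most abundant of the neutrophil, also took more of the UMIs of mature neutrophils (3163 per 10,000) than in the other 3 libraries (1997, 2088 and 2103).

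Taken as a sum, transcripts of the 6 cluster genes were scarce in progenitors and most abundant in activated mature neutrophils, in all 4 libraries. Summed over the 6 genes, progenitors had 0.083, 0.304, 0.964 and 1.24 UMIs per 10,000 UMIs in Ctrl replicates 1 and 2 and HLU replicates 1 and 2. In dividing immature neutrophils the sum was 4.43, 2.19, 6.46 and 5.84, and in immature neutrophils it was 2.91, 2.51, 2.60 and 13.9. Mature neutrophils had 14.3, 19.9, 23.2 and 51.6, and activated mature neutrophils had 33.0, 30.3, 39.1 and 69.2. Within every library the sum was 3.70 to 8.94 times higher in mature than in immature neutrophils, and 1.34 to 2.30 times higher again in activated cells. Not every gene shared this last step, as given below. The median fold of mature over immature cells was lower without integration of the libraries, as given in the closing section. Between dividing and immature neutrophils the order differed by library, with folds of 0.40 to 2.39. These values scale each class to its total UMIs. S100a8, which encodes a subunit of calprotectin, went the other way and was 0.79 to 0.99 times as high in mature as in immature neutrophils and 0.39 to 0.73 times as high in activated as in mature cells.

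**Figure D1:**
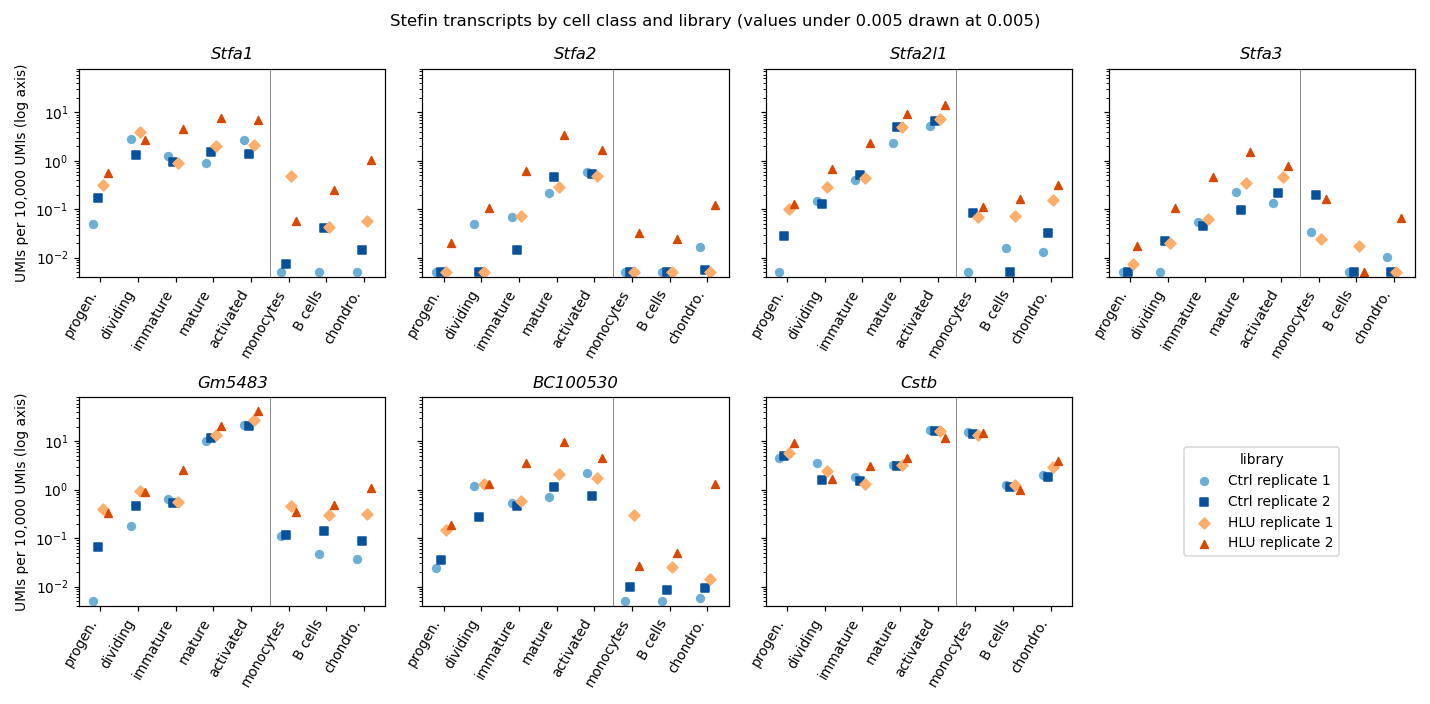
Level of each stefin gene by cell class (x axis), in UMIs per 10,000 UMIs of the class (y axis, log scale), with 1 symbol per library. Gm5483 and Stfa2l1 are higher in mature than in immature neutrophils and higher again in activated cells in all 4 libraries. The class level of Cstb in monocytes (13.4 to 15.3) lies within its range in activated mature neutrophils (11.4 to 17.4).

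Gm5483, a stefin A copy, was the most counted of the 6 genes in mature and activated neutrophils. Its level was 0.634, 0.528, 0.544 and 2.58 UMIs per 10,000 in immature neutrophils, 10.02, 11.6, 13.4 and 20.4 in mature neutrophils, and 22.1, 20.7, 27.1 and 41.2 in activated cells. Mature cells were thus 7.90 to 24.5 times as high as immature cells, and activated cells 1.78 to 2.21 times as high as mature cells. In mature neutrophils Gm5483 gave 69.9, 58.4, 57.5 and 39.5% of the UMIs of the 6 genes, the highest share of any of them in each library.

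Stfa2l1, an inhibitor of the same family, came next to it in mature neutrophils of 3 of the 4 libraries. It stood at 2.27, 5.04, 5.03 and 9.18 UMIs per 10,000 in mature neutrophils and at 5.26, 6.74, 7.24 and 13.96 in activated cells. Its level was 3.96 to 11.5 times higher in mature than in immature neutrophils, and all 4 libraries were also higher in immature than in dividing cells, by 1.51 to 3.96 times.

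Stfa1 and BC100530 rose less from immature to mature neutrophils than Gm5483 and Stfa2l1 did, in each library. Stfa1 stood at 2.84, 1.33, 3.94 and 2.75 UMIs per 10,000 in dividing immature neutrophils and at 0.906, 1.52, 2.06 and 7.54 in mature neutrophils. The ratio of mature to immature cells for Stfa1 was 0.74 to 2.26 and lay below 1 in Ctrl replicate 1. In dividing immature neutrophils Stfa1 gave 64.1, 60.5, 60.9 and 47.0% of the UMIs of the 6 genes, where Gm5483 gave 4.0 to 20.5%. The make-up of the group thus differed between stages: Stfa1 led in dividing and immature cells and Gm5483 in mature and activated cells, in each library. BC100530 had 1.21, 0.267, 1.28 and 1.30 UMIs per 10,000 in dividing cells and 0.692, 1.14, 2.16 and 9.53 in mature cells.

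Stfa2 and Stfa3 were the least counted members. In mature neutrophils Stfa2 stood at 0.220, 0.471, 0.282 and 3.43 UMIs per 10,000, and Stfa3 at 0.231, 0.098, 0.345 and 1.52. HLU replicate 2 was the highest library for both. Mature cells were higher than immature cells in each library, by 3.23 to 33.1 times for Stfa2 and 2.18 to 5.57 times for Stfa3. The ratio of activated to mature cells was 2.62, 1.11, 1.70 and 0.50 for Stfa2 and 0.58, 2.19, 1.36 and 0.52 for Stfa3.

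Cstb followed another course. In progenitors it stood at 4.49, 4.98, 5.77 and 9.08 UMIs per 10,000, above any cluster gene in that class. It was lower in immature neutrophils (1.83, 1.54, 1.33 and 3.12), 1.44 to 2.39 times as high in mature neutrophils (3.23, 3.07, 3.17 and 4.49), and high again in activated cells (17.4, 16.2, 16.6 and 11.4). Monocytes had 15.3, 13.997, 13.4 and 14.9, so that the ranges of monocytes and activated neutrophils overlapped. B cells had 1.001 to 1.25. Neutrophil classes held 81.2 to 92.8% of the summed UMIs of the 6 cluster genes in a library but 18.8 to 44.1% of those of Cstb. Over single cluster genes the share ran from 42.7% for Stfa3 in Ctrl replicate 2 to 97.0% for BC100530 in HLU replicate 2, and it was also low for Stfa3 in Ctrl replicate 1 (58.1%) and for BC100530 in Ctrl replicate 2 (52.2%). These shares count the unnamed clusters outside the neutrophil classes. Neutrophil classes made up 31.3 and 39.0% of the cells in Ctrl and 65.9 and 62.0% in HLU, so the shares of UMIs are not levels per cell. In Ctrl replicate 2, 1 cell of the unnamed clusters held 345 of the 1461 BC100530 UMIs.

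Of the other genes of the locus 2010005H15Rik was the most counted in mature neutrophils, above Stfa2 and Stfa3 in both Ctrl libraries and in HLU replicate 1. Csta1 had at most 0.003 UMIs per 10,000 in any of the neutrophil and monocyte classes, BC117090 at most 0.029 and Gm5416 at most 0.421. 2010005H15Rik stood at 0.439, 0.827, 0.811 and 1.52 in mature neutrophils and at 1.11, 0.922, 1.25 and 2.09 in activated cells, the same order of stages as Gm5483, with which it shares 3′ sequence. Gm15845, an antisense gene that overlaps BC100530, had next to none, with at most 0.006.

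**Figure D2:**
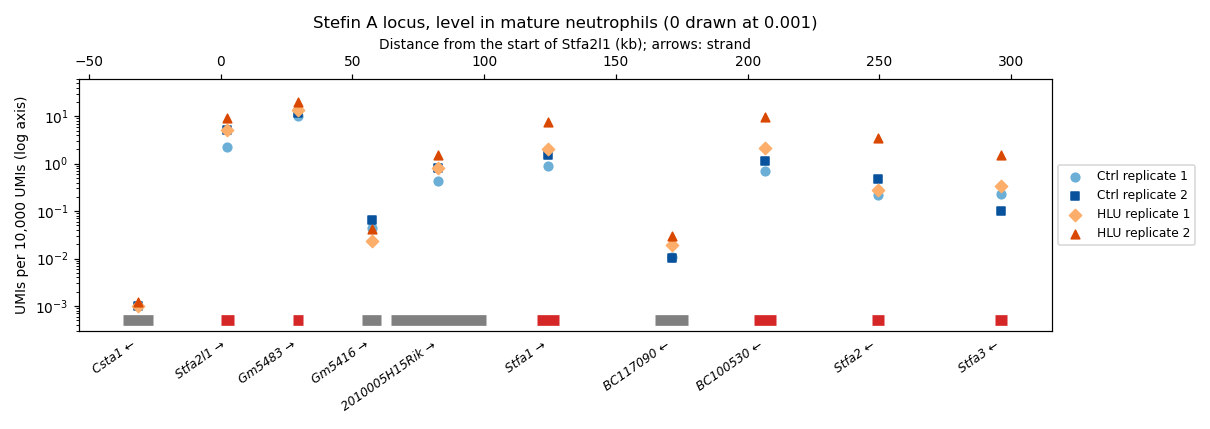
Genes of the stefin A locus by distance from the start of Stfa2l1 (x axis, kb, arrows giving the strand) and their level in mature neutrophils (y axis, UMIs per 10,000 UMIs, log scale, with 0 drawn at 0.001), with 1 symbol per library. Gm5483 is the highest gene in all 4 libraries and Csta1 the lowest.

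Most of these transcripts came from few cells. In mature neutrophils 50% of the Gm5483 UMIs lay in 37, 55, 108 and 128 cells, and 50% of those of Stfa2l1 in 28, 48, 108 and 162 cells. For Stfa1 it took 6, 7, 23 and 54 cells, for BC100530 4, 5, 24 and 49, for Stfa2 4, 5, 17 and 59, and for Stfa3 5, 7, 9 and 38. Cstb was spread wider, over 71, 75, 154 and 253 cells. The rarest genes were therefore set by a handful of cells in the Ctrl libraries. In dividing immature neutrophils 50% of the Stfa1 UMIs came from 4, 3, 3 and 12 cells.

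**Figure D3:**
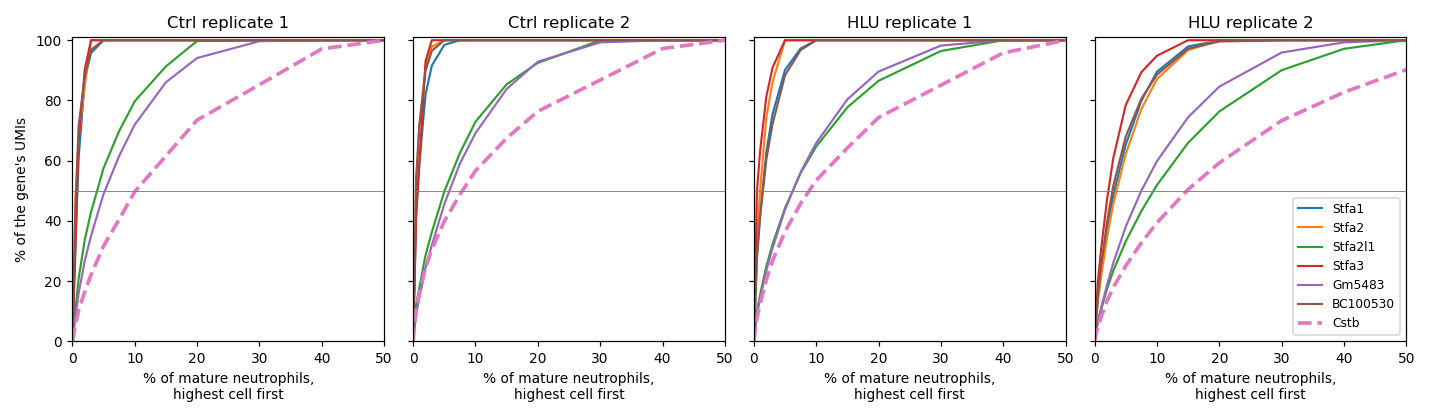
Share of a gene's UMIs (y axis, %) held by the cells richest in it (x axis, % of mature neutrophils), with 1 panel per library and 1 line per gene. The lines of Stfa1, Stfa2, Stfa3 and BC100530 climb more steeply than those of Cstb.

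Cells were thinned to 1000 UMIs each so that shares could be compared across depths. With at least 1 UMI of the 6 genes there were 34.4, 38.7, 46.5 and 61.9% of mature neutrophils, and before thinning 43.7, 49.3, 57.6 and 74.5%. Among activated cells the thinned share was 51.7, 52.9, 61.8 and 72.4%, and among immature neutrophils 6.9, 9.5, 12.4 and 30.2%. B cells, which should lack these transcripts, had 2.08, 2.82, 2.47 and 2.33% at a median depth of 2434 to 3429 UMIs, and monocytes 1.86, 3.57, 4.38 and 5.25% at 8614 to 12647. The share in monocytes of Ctrl replicate 1 lay below that of B cells and can be read only as background.

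In mature neutrophils the share averaged 54.2% ± 10.9 in HLU and 36.6% ± 3.06 in Ctrl (SD, n = 2 each), and both HLU libraries lay above both Ctrl libraries. The difference of 17.6 percentage points had an exact two-sided permutation p of 0.33, the smallest that 2 against 2 libraries allow. Unthinned the difference was 19.6 points. Cells with 2 or more of the 6 genes made up 10.5, 15.8, 20.9 and 35.2% of mature neutrophils after thinning.

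**Figure D4:**
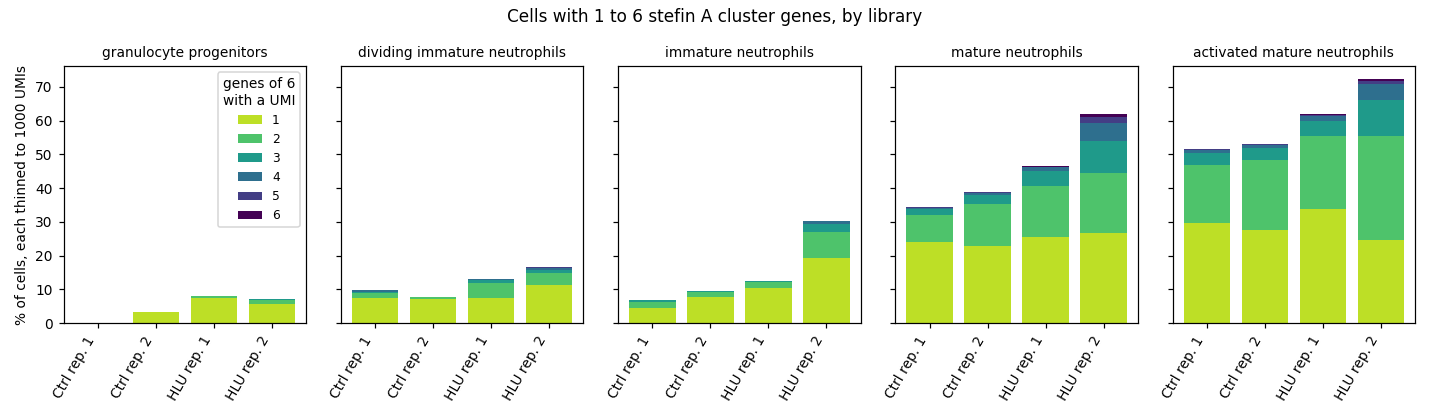
Share of cells (y axis, %, each cell thinned to 1000 UMIs) with 1 to 6 of the cluster genes (colours), by library (x axis) and class (panels). HLU replicate 2 has the tallest bar in all classes shown but progenitors, with 61.9% of its mature neutrophils holding at least 1 gene.

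Some pairs of cluster genes were found together in the same cells, and 2 pairs are given. Of mature neutrophils with a Stfa2l1 UMI, 62.6, 57.4, 56.5 and 60.6% also had Gm5483, against 20.9, 18.8, 21.9 and 22.5% of those without. BC100530 was found in 22.7, 22.2, 24.4 and 34.6% of cells with Stfa1 and in 1.5, 2.6, 6.2 and 14.1% of cells without it. Not every pair did so, and Stfa3 was in none of the Stfa1 cells of Ctrl replicate 2. For Cstb the contrast was smaller: Gm5483 was in 34.1, 30.6, 35.5 and 37.2% of cells with Cstb and in 24.0, 26.2, 29.1 and 35.1% of cells without. These shares were counted after thinning, over the cells of 1 library at a time, and cells of a library are not replicates. The mature class pools cell clusters of unlike level, as given below, and pairs were not counted within a cluster. Stfa1 and BC100530 share 3′ sequence, and reads that fit both are dropped, so both counts may be too low. The effect on these shares was not tested.

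Outside the neutrophil line the number of cluster gene UMIs was set against S100a8 and S100a9, neutrophil transcripts that also turn up in other cells as free RNA. Neutrophil classes together had 3.66, 4.02, 4.46 and 7.74 cluster gene UMIs per 1000 UMIs of S100a8 and S100a9. Mature neutrophils alone had 7.18, 9.52, 11.05 and 16.3, and activated mature neutrophils 44.5, 32.9, 47.5 and 32.7. Lymphoid, skeletal, endothelial, basophil and erythroid cells together had 7.12, 4.96, 5.27 and 17.96, above the ratio of all neutrophil classes in each library. They lay below activated neutrophils in each library and below mature neutrophils in all but HLU replicate 2. The source of these UMIs was not tested. In HLU replicate 2 single cells weighed on the ratio of these other cells, since 1 B cell held 59.3% of the cluster gene UMIs of all B cells and 1 chondrocyte 53.0% of those of chondrocytes. The clusters that stayed unnamed held 601, 2381, 3592 and 4063 cluster gene UMIs, or 3.81, 7.93, 11.9 and 22.9 per 1000 of S100a8 and S100a9. They had 205, 433, 774 and 1144 UMIs of S100a8 and S100a9 per 10,000, against 14.8, 30.3, 117 and 103 in the other cells named above together. They may thus hold neutrophils, which was not tested. Monocytes had 6.12, 11.3, 22.0 and 12.6, and in HLU replicate 1 a single cell held 565 of their 832 cluster gene UMIs. Stfa3 in monocytes stood at 0.035, 0.194, 0.024 and 0.165 UMIs per 10,000 (8, 80, 15 and 312 UMIs), and the groups overlapped.

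The comparison of HLU with Ctrl asked whether these genes differed between loaded and unloaded bone within a stage. In mature neutrophils all 7 members had a higher fitted level in HLU, with a median log2 fold change of 2.39 over the members and 0.03 over all genes tested, and no member passed the test. Without HLU replicate 2, Stfa2 (-0.40) and Cstb (-0.048) had a lower fitted level. By edgeR's quasi-likelihood test on summed counts with Benjamini-Hochberg adjustment 0 of 7 were called, where 1.25% of the 8001 genes tested were. At an unadjusted p under 0.05 there were 3 members, against 7.61% of all genes, and DESeq2 called 3 (Stfa1, Stfa3 and BC100530), against 2.77% of all genes. Both HLU libraries lay above both Ctrl libraries for 4 of 7 members, which held for 19.6% of all genes. The members were chosen with their levels by library known. Here and in the other classes the shares of all genes therefore give a scale and do not test the group.

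BC100530 had the largest fitted difference in mature neutrophils. Its level was 64.0 and 106 CPM (summed UMIs scaled by library total and TMM factor) in Ctrl and 194 and 1258 in HLU, and the groups did not overlap. HLU exceeded Ctrl by a fitted log2 difference of 3.09 (SE 0.90, adjusted p = 0.345). Stfa3 had 21.3 and 9.10 against 31.0 and 201 CPM (log2 fold change 2.96, SE 0.95, adjusted p = 0.473). Here too the HLU libraries lay above the Ctrl libraries, and HLU replicate 1 stood near the Ctrl range.

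Stfa1 stood at 83.8 and 141 CPM in Ctrl and 186 and 994 in HLU (log2 fold change 2.39, SE 0.81, adjusted p = 0.525). Gm5483, the most counted member, had 927 and 1074 CPM against 1201 and 2689 and the smallest difference of the 4 genes without overlap (0.96, SE 0.48, adjusted p = 0.699). In both genes HLU replicate 2 was the highest library.

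The groups overlapped for the other members. Stfa2 had 20.3 and 43.6 CPM in Ctrl and 25.4 and 452 in HLU (log2 fold change 2.89, SE 1.24, adjusted p = 0.664). Stfa2l1 had 210 and 466 against 452 and 1212 (1.30, SE 0.62, adjusted p = 0.696), and Cstb 299 and 284 against 285 and 592 (0.59, SE 0.43, adjusted p = 0.739). In each of the 3, HLU replicate 1 lay between the Ctrl libraries.

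**Figure D5:**
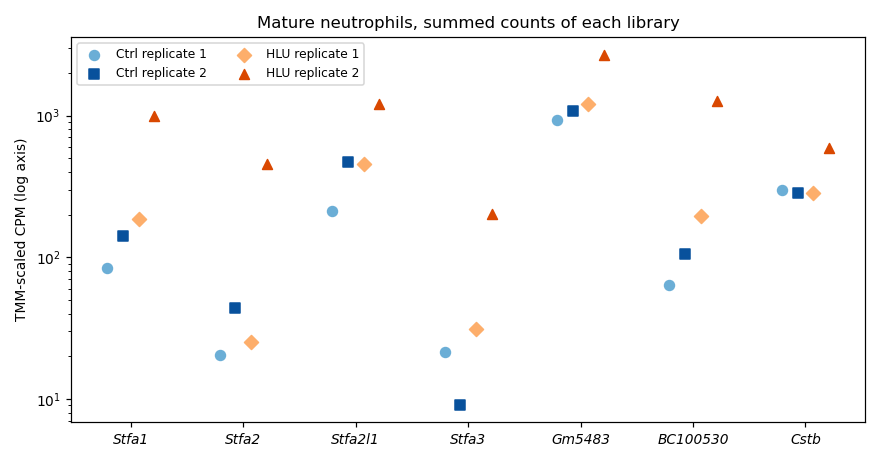
Level of the 7 members in mature neutrophils (y axis, TMM-scaled CPM, log scale) by gene (x axis), with 1 symbol per library. HLU replicate 2 is the highest library for all 7 genes, and HLU replicate 1 lies nearer to the Ctrl libraries than to HLU replicate 2.

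HLU replicate 2 stood apart from the other 3 libraries. Its mature neutrophils had 3.26 times the summed cluster gene level of HLU replicate 1, whereas Ctrl replicate 2 had 1.39 times that of Ctrl replicate 1. All 7 members were at least 2-fold higher in HLU replicate 2 than in HLU replicate 1, as were 14.7% of all genes tested, and 2 of 7 were so in Ctrl replicate 2 over Ctrl replicate 1, as were 4.17%. Scaled by total UMIs in place of TMM factors, 4 of 7 members passed 2-fold, against 6.39% of all genes. The members were chosen on their levels by library, so these counts are descriptions and do not test the group against all genes. When HLU replicate 1 was left out, 7 of 7 members were called, but so were 44.1% of all genes, and the lone HLU library was assumed to vary like the Ctrl libraries. Without HLU replicate 2, 3 of 7 were called (Stfa1, Stfa3 and BC100530, with log2 fold changes of 0.69, 1.09 and 1.15), against 6.2% of all genes, under the same assumption. Leaving out either Ctrl library gave 0 calls over all genes.

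The gap stood within the larger clusters of the mature class. In cell cluster 0, the largest, the summed level of the 6 genes was 23.9, 28.3, 30.2 and 63.0 UMIs per 10,000, and in cell cluster 4 it was 4.33, 9.03, 15.4 and 40.5. Cell cluster 0 made up 57.7 to 62.9% of the class in each library. In cell cluster 28, with 5, 10, 38 and 50 cells, the sum was 22.5, 45.4, 15.6 and 31.6, and HLU replicate 2 lay below Ctrl replicate 2. HLU replicate 2 was the highest library for 7 of 7 members in mature and immature neutrophils, 6 of 7 in activated cells and in progenitors, 5 of 7 in dividing cells and 2 of 7 in monocytes. These counts include members below the filter on low counts in progenitors and monocytes. How many of all genes were highest in HLU replicate 2 is not given here, so the counts say nothing for the members as a group. Greater depth and more S100a8 and S100a9 went with HLU replicate 2 in the mature cells, as given above, and their part in the gap was not tested.

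In immature neutrophils 0 of 7 members were called by edgeR, where 0.997% of 9025 genes were, with 3 at an unadjusted p under 0.05 (9.47% of all genes) and 1 called by DESeq2 (2.07% of all genes). Both HLU libraries lay above both Ctrl libraries for 2 of 7 members, Stfa3 and BC100530, against 22.8% of all genes. BC100530 had 49.97 and 44.6 CPM in Ctrl and 50.7 and 428 in HLU (log2 fold change 2.34, SE 0.87, adjusted p = 0.494). HLU replicate 1 was thus level with Ctrl, and so it was for Gm5483, with 60.5 and 51.0 against 48.4 and 318 CPM. Without HLU replicate 1, 7 of 7 members were called in this class, as were 34.4% of all genes, and without HLU replicate 2 none was, against 4.75%.

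In activated mature neutrophils the calls were 0 of 7 by edgeR, against 1.45% of 6291 genes, and 0 by DESeq2, against 2.5%, with 1 member at an unadjusted p under 0.05, against 9.19%. Stfa3 had 13.1 and 22.7 CPM in Ctrl and 40.5 and 92.5 in HLU (log2 fold change 1.88, SE 0.58, adjusted p = 0.392), and Gm5483 had 2171 and 2175 against 2339 and 4828 (0.72, SE 0.56, adjusted p = 0.653). These 2 of 7 members did not overlap between the groups with HLU higher, against 22.4% of all genes. Cstb had the opposite order, with 1709 and 1706 CPM in Ctrl and 1437 and 1337 in HLU (log2 fold change -0.30, SE 0.45, adjusted p = 0.806). How many of all genes had that order is not given here. Without HLU replicate 1, 6 of 7 members were called, as were 42.9% of all genes.

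In dividing immature neutrophils 0 of 7 members were called, against 0.8% of 9121 genes, with 2 at an unadjusted p under 0.05 (7.61% of all genes) and 1 called by DESeq2 (1.51% of all genes). Those 2 were Stfa2l1, with 14.8 and 13.2 CPM in Ctrl and 27.1 and 73.1 in HLU (log2 fold change 1.85, SE 0.49, adjusted p = 0.344), and Gm5483, with 17.8 and 46.3 against 86.5 and 94.4 (1.48, SE 0.44, adjusted p = 0.494). Both HLU libraries lay above both Ctrl libraries for 3 of 7 members, these 2 and Stfa1, against 21.1% of all genes. For Stfa1 this order held for TMM-scaled CPM only. Scaled by total UMIs, as in the stage levels above, HLU replicate 2 lay below Ctrl replicate 1. Without integration of the libraries the fitted difference of Gm5483 was -0.28. Stfa1, the main cluster gene of this class, had 283 and 136 against 367 and 291 CPM (0.65, SE 0.40, adjusted p = 0.716). Without HLU replicate 1, 4 members were called, as were 21% of all genes, and without HLU replicate 2 it was 1 member, against 1.47%.

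Granulocyte progenitors had few of these UMIs, and 5 of the 7 members passed the filter on low counts. None of the 5 was called by edgeR, against 0.195% of 9754 genes, with 4 at an unadjusted p under 0.05 (4.52% of all genes) and 1 called by DESeq2 (1.09% of all genes). Stfa2l1, with 1 and 9 UMIs in Ctrl, and Gm5483, with 1 and 21, reached the level of the filter in a single Ctrl library and passed through the HLU libraries, so the counts over these 5 say nothing for the group. BC100530 had 2.77 and 3.61 CPM in Ctrl and 14.5 and 15.8 in HLU (log2 fold change 2.22, SE 0.43, adjusted p = 0.193), and Gm5483 0.553 and 6.89 against 39.4 and 28.7 (3.04, SE 0.74, adjusted p = 0.459). The low Ctrl values rest on few molecules, 17 and 96 UMIs of all 6 genes together. Cstb, well counted in this class, had 509 and 517 against 575 and 784 CPM (0.41, SE 0.31, adjusted p = 0.831). Without HLU replicate 1, HLU replicate 2 or Ctrl replicate 2, 4, 3 and 1 of the members were called, against 31.3, 1.3 and 0.285% of all genes.

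In monocytes 6 members passed the filter and 0 were called by edgeR, against 0.019% of 10554 genes, with 3 at an unadjusted p under 0.05, against 4.24%, and 3 called by DESeq2 (Stfa1, Gm5483 and BC100530), against 1.03%. Stfa1, with 1 and 3 UMIs in Ctrl, and BC100530, with 0 and 4, passed the filter through the HLU libraries alone, so these counts say nothing for the group and the fitted size for both genes depends on the prior count. Stfa1 had 0.453 and 0.715 CPM in Ctrl and 46.1 and 6.02 in HLU (log2 fold change 5.35, SE 1.30, adjusted p = 0.699). In HLU replicate 1, 284 of its 301 UMIs were in 1 cell, as were 173 of the 186 of BC100530. Without the highest cell of each library the log2 fold change was 3.63 in place of 5.35 for Stfa1 and 2.27 in place of 4.65 for BC100530, and DESeq2 then called Gm5483 alone, against 1.01% of all genes. Gm5483 had 11.3 and 11.2 CPM in Ctrl and 43.9 and 35.7 in HLU (log2 fold change 1.82, SE 0.29, adjusted p = 0.228 by edgeR), with groups that did not overlap. Both HLU libraries lay above both Ctrl libraries for 17.7% of all genes. In HLU replicate 1 Gm5483 gave 34.5% of the 832 cluster gene UMIs of monocytes, and a single cell held 100 of its UMIs. S100a8 and S100a9 were also higher in both HLU libraries in monocytes, with 24.0, 35.9, 61.2 and 58.3 UMIs per 10,000, and in B cells, with 22.7, 34.1, 80.3 and 78.1, and the part of free RNA in this result was not tested. Cstb stood at 1603 and 1376 CPM against 1265 and 1542 (-0.09, SE 0.30, adjusted p = 0.945). Without HLU replicate 1 or without HLU replicate 2, 4 members were called, against 38.9 and 2.63% of all genes.

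A list of cysteine cathepsins, the kind of protease that stefins block, together with legumain was split in direction in mature neutrophils. Of 11 cysteine cathepsins and legumain, 8 were tested in mature neutrophils, 4 with a higher and 4 with a lower fitted level in HLU, with a median log2 fold change of 0.08 against 0.03 over all genes. edgeR called 0 of them, against 1.25% of all genes, and the lowest adjusted p was 0.072. At an unadjusted p under 0.05 there were 2, against 7.61% of all genes, and DESeq2 called 1, against 2.77%. The 3 most counted were lysosomal proteases. Ctsb had 317 and 321 CPM in Ctrl and 244 and 508 in HLU (log2 fold change 0.24, SE 0.43, adjusted p = 0.897), Ctsz 158 and 125 against 141 and 229 (0.39, SE 0.36, adjusted p = 0.778), and Ctsl 163 and 173 against 112 and 69.9 (-0.89, SE 0.34, adjusted p = 0.633). Of these Ctsl did not overlap between the groups, and the share of all genes with both HLU libraries below is not given here. In the other 5 classes 6 to 10 of the list were tested and edgeR called 0 in each. The lowest edgeR adjusted p was 0.052 in dividing and 0.094 in activated cells. At an unadjusted p under 0.05 there were 0 to 2 per class, against 4.24 to 9.47% of all genes, and DESeq2 called 0 or 1, against 1.03 to 2.5%. The median log2 fold change over all genes was 0.016 to 0.060 in these classes. More had a lower than a higher fitted level in progenitors (7 and 1), dividing cells (4 and 2), activated cells (5 and 3) and monocytes (7 and 3), and in immature neutrophils 3 were lower and 4 higher. By stage Ctsb stood at 3.42, 3.47, 2.71 and 3.85 UMIs per 10,000 in mature neutrophils, 10.8, 9.39, 10.1 and 8.41 in activated cells, and 12.4, 10.6, 11.004 and 10.1 in monocytes.

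Of 14 other cystatins and related genes, only Cst3 passed the filter in mature neutrophils. Cst3 encodes cystatin C, a secreted inhibitor of the same proteases, and had 732 and 661 CPM in Ctrl and 283 and 314 in HLU (log2 fold change -1.22, SE 0.31, adjusted p = 0.242, unadjusted p = 0.00842), and DESeq2 did not call it. The groups did not overlap, with HLU lower, and the share of all genes in that order is not given here. Cst3 had the same order in B cells, with 7.52 and 6.23 UMIs per 10,000 in Ctrl and 2.90 and 2.43 in HLU, and the part of free RNA was not tested. In the other classes 1 or 2 of the 14 were tested and edgeR and DESeq2 called 0. At an unadjusted p under 0.05 by edgeR there were 0 or 1, against 4.24 to 9.47% of all genes.

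The genes whose levels ran most like the summed cluster genes were sought over 52 sums of a library and class, from 15 classes, among 7873 genes with a mean of at least 10 CPM. The highest correlations of log2(CPM + 1) were those of Cxcr2 (r = 0.855), a chemokine receptor of mature neutrophils, Cd33 (0.853), a sialic acid-binding surface receptor, Fpr2 (0.851), a formyl peptide receptor, Ly6g (0.847), a surface antigen of mouse neutrophils, and Asprv1 (0.844), an aspartic protease. Cstb reached r = 0.323 with the summed cluster genes. Sums of 1 library share its depth and its free RNA, and the classes are those in which the cluster genes were chosen to differ, so the values are descriptions.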

How the data were processed

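The deposited files held UMI counts per gene and barcode for 4 libraries, made by the authors with a 10x Genomics 3′ v3.1 kit and, per the submitters' processing notes, Cell Ranger 6.0.0 on mm10, with Seurat 4.1.0 also named; the read length is not given in the sources used here. The libraries held 10000 barcodes each, except 10003 in HLU replicate 2, with 47819046 to 99849070 UMIs per library. Barcodes were filtered as in the report, and Scrublet (scanpy 1.11.5) scored doublets, of which 437 to 772 per library were removed. Libraries were integrated through anchors in Seurat 5.3.0 on 2000 variable genes without the stefins (50 components, resolution 1), and clusters were named from listed markers by thresholds set after the clusters were seen. The members and lists were chosen with earlier results of these data known.

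Counts were summed per library and class. edgeR 4.0.16 (TMM factors, filterByExpr, quasi-likelihood F test, Benjamini-Hochberg over all tested genes) compared HLU with Ctrl, with calls at an adjusted p under 0.05, and the fit was tested on simulated counts. DESeq2 1.42.0 was an alternative, with leaving out each library, other filters, scalings, clusterings and a replicate block. The activated class and the sums without the highest cell were added after the data were seen. Every library is 1 mouse, so p-values measure the spread between 2 mice per group. Named genes were the members, all counted genes of the locus, and for each of 2 lists (cysteine cathepsins with legumain, and other cystatins) the called genes or else the 3 with the most CPM, of those that passed the filter. Likeness took the 5 best correlated genes. Stage levels are UMIs per 10,000 UMIs, and a 3′ UMI counts a molecule once, so levels need no length scaling. Gene positions came from GENCODE M21, where 31011 of 31053 genes were found. For every share of cells the exact (Clopper-Pearson) 95% interval was computed, and such intervals cover counting error only.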

Additional observations from a re-analysis of the deposited data

Results flagged for a closer look

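Cstb had fitted differences of opposite sign in 2 classes, neither of which passed the test (adjusted p = 0.806 and 0.831 by edgeR). Its log2 fold change, HLU against Ctrl, was -0.30 in activated mature neutrophils, where both HLU libraries lay below both Ctrl libraries, and 0.41 in granulocyte progenitors, where both lay above. In progenitors both lay above for 20.2% of the 9754 genes tested. The share of genes with both below in activated cells is not given here, so these orders do not set Cstb apart. The difference between the classes was not tested.

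Barcodes with under 1000 UMIs, which no comparison used, also held cluster gene UMIs. They had 5.70 per 10,000 UMIs in HLU replicate 1 (2143 barcodes) and 7.52 in HLU replicate 2 (267 barcodes), above the 3.04 and 3.59 of the Ctrl libraries. Per 1000 UMIs of S100a8 and S100a9 the values were 6.16 and 4.81 in Ctrl and 4.33 and 22.8 in HLU. What these barcodes hold was not tested.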

How the results depend on the processing

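edgeR called 0 members in each of the 6 classes, and the counts below are in the order progenitors, dividing, immature, mature and activated neutrophils and monocytes. DESeq2 called 1, 1, 1, 3, 0 and 3, against 1.09, 1.51, 2.07, 2.77, 2.5 and 1.03% of all genes. With no filter on low counts edgeR called 4, 3, 6, 5, 1 and 4. Leaving out 1 library gave 0 to 4, 0 to 4, 0 to 7, 0 to 7, 0 to 6 and 0 to 4 calls. Without the highest cell of each member per library, an alternative chosen after seeing the data, edgeR called 1 member in dividing cells and 0 in the other classes, and DESeq2 called 2 in dividing cells, 3 in mature cells, 1 in monocytes and 0 in the others. The number of all genes called in mature cells was 100 as reported, 222 by DESeq2, 675 with no filter, 218 with a replicate block, 31 without integration, 199 at resolution 0.5, 163 with doublets kept, 156 with the haemoglobin limit, 3528 and 494 without HLU replicate 1 and 2, and 0 without either Ctrl library. The labels do not say whether libraries of the same replicate number were processed together. The deviations of the replicate 1 libraries correlated by 0.013 to 0.18, which cannot decide this. With a replicate block 2 members passed in dividing cells (Stfa2l1 and Gm5483) and 1 in mature cells (BC100530), and 0 in the other classes. How many of all genes were called is not given here for no filter or a replicate block outside mature cells. Nor is it given for the sums without the highest cell, except by DESeq2 in monocytes (1.01%). Those counts therefore say nothing for the members as a group. TMM factors set without the members, resolution 0.5 or 2, doublets kept, a haemoglobin limit of 0.2% and no integration gave 0 calls. Without integration the activated class held 987 and 1478 cells in Ctrl and 39 and 0 in HLU, so it was not fitted. In the largest mature cluster of that setting 2383 of 2790 cells came from HLU replicate 1. In the next largest 2296 of 2370 came from HLU replicate 2, so that setting does not repeat the same comparison. Of 283 alternative values of 19 named results 220 kept direction and side of the threshold, 60 passed it with the same direction and 3 reversed: Gm5483 in dividing cells without integration (-0.28), and in mature cells without HLU replicate 2 Stfa2 (-0.40) and Cstb (-0.048), which ranged up to 3.76 and 1.02 when another library was left out. The 60 that passed include 15 with no filter on low counts and 9 by DESeq2, and others came from fits without 1 library. No share of all genes is set beside these 60, so they say nothing for the members as a group. The log2 ratio of HLU replicate 2 to replicate 1 in mature cells, 1.70, was 1.15 by total UMIs, 1.75 at resolution 0.5 and 1.61 with doublets kept. The median fold of mature over immature cells, 6.42, was 3.62 without integration. The cause of these changes was not tested. With 2 mice per group an exact test cannot go below p = 0.33, and genes that 4 to 7 cells supply in a Ctrl library cannot be measured closely.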
